A study of Capra hircus with 20 samples.

Results

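A set of 10 genes of bone morphogenetic protein (BMP) signalling were followed through goat fat cell cultures: the ligands BMP2, BMP4 and BMP6, the receptors BMPR1A, BMPR1B and BMPR2, the secreted antagonist GREM1 (gremlin 1), and the inhibitors of DNA binding ID1, ID2 and ID3. They were picked by gene symbol, 10 of the 20587 symbols in the mRNA table, and their 27 annotated transcripts were added up per gene. The cells were intramuscular and subcutaneous preadipocytes of male Jianzhou Daer goats aged 7 days, isolated from the longissimus dorsi muscle or from subcutaneous fat and grown to passage 3. Intramuscular preadipocytes (IMPA) and subcutaneous preadipocytes (SPA) were taken at day 0, and intramuscular adipocytes (IMA) and subcutaneous adipocytes (SA) after 3 days in induction medium containing oleic acid. Each group held 5 libraries, 20 in all. All the animals were of 1 breed, 1 sex and 1 age, and no group carried a genetic change. Tissue of origin and depot cannot be told apart from the separate isolation of each cell type, and induced cells also differed from uninduced ones by their days in culture.

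BMPs are secreted dimers that bring type I receptors (BMPR1A, BMPR1B) and a type II receptor (BMPR2) together, after which SMAD1, SMAD5 and SMAD9 are phosphorylated and enter the nucleus with SMAD4. The ID genes are among the best known direct targets of these SMADs. Their proteins bind E proteins and other basic helix-loop-helix factors and keep them off DNA. GREM1 binds BMP2 and BMP4 outside the cell and keeps them from their receptors. In fat, BMP4 and BMP2 are known for committing mesenchymal precursors to the adipocyte lineage, and GREM1 for opposing this in human preadipocytes.

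Expression was measured as FPKM, fragment counts scaled by transcript length and by the reads mapped in the library, so levels can be compared between genes. Comparison between libraries is less strict, since FPKM sums differ between them and no further scaling was applied. FPKM values of the mRNAs in a library summed to between 373889 and 413880, and 15126 to 16961 genes were above 0. Counts were not used here, so the depth of a single value is unknown. A gene was tested when its mean over the 20 libraries was at least 1 FPKM, which 11432 genes passed. Of the 10 genes 8 passed; BMP2 and BMP6 did not, and BMPR1B passed only through its subcutaneous libraries. Differences are given on the scale of log2(FPKM + 1), with adjusted p values from limma after Benjamini-Hochberg correction over all tested genes, and a gene is said to rise or fall where its adjusted p was under 0.05. Tissue was taken from 5 goats, but the goat behind each replicate number is not given in the sources used here, so p values measure the spread between these libraries, some of which may be technical. In bulk RNA, fewer cells of a type and less RNA per cell cannot be told apart.

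The groups were checked against marker genes, shown in the plot of marker lists. Adipocyte markers were low throughout: 8 of 9 listed genes were in the table and summed to a mean of 11.7 FPKM in IMPA, 7.73 in IMA, 11.4 in SPA and 11.2 in SA. ADIPOQ stayed at group means between 0.197 and 0.419 FPKM, PLIN1 between 0.128 and 0.276, and PPARG between 0.364 and 1.03 (0.624 in SPA and 1.03 in SA). CEBPA had means of 9.23, 5.42, 5.05 and 3.91 FPKM in IMPA, IMA, SPA and SA, and was most of the sum in IMPA. LPL was at 1.02, 0.941, 0.549 and 1.34 FPKM in the same order. Single genes of the list thus went in both directions in the subcutaneous cells, where the sum hardly moved. The lipid droplet gene CIDEC was at 4.65 FPKM in SPA and 4.35 in SA, against 0.333 and 0.318 in IMPA and IMA. ADIPOQ and PLIN1 were thus under 1 FPKM also in the libraries labelled adipocytes. The paper based that label on other evidence. It reports Oil Red O staining of lipid droplets after 3 days in both cell types, and less Pref-1 (DLK1) mRNA than in preadipocytes. Skeletal muscle markers summed to 2634 to 3038 FPKM in IMPA and 9140 to 9812 in IMA, against 6.55 to 19.6 in SPA and 7.27 to 8.94 in SA. In IMA against IMPA, 8 of the 10 muscle genes rose and 1 fell (exact two-sided permutation test of the sum, p = 0.00794, the smallest that 5 libraries against 5 allow, and 0.0119 after Benjamini-Hochberg adjustment over 24 such tests), and all 10 were higher in IMPA than in SPA. Stromal markers summed to means of 2883, 2876, 8832 and 7617 FPKM in IMPA, IMA, SPA and SA. DLK1, the preadipocyte factor, had means of 0.0114, 0.0316, 0.145 and 0.157 FPKM in the same order. At that low level these values show no fall with induction. Proliferation genes summed to means of 134, 117, 49.2 and 262 FPKM, and all 7 rose in SA against SPA. Endothelial genes summed to 1.06 FPKM or less in every group mean, and the macrophage and blood list to between 6.57 and 16.8, nearly all of it CD14, with PTPRC at or near 0. Between depots the muscle sum was higher in the intramuscular cells at both stages, and the stromal, endothelial and macrophage sums were lower. The proliferation sum was higher in IMPA than in SPA and lower in IMA than in SA, and the adipocyte sum was lower in IMA than in SA (exact permutation p = 0.00794 for each of these, adjusted 0.0119). With the stage, at the same p, the muscle and macrophage sums rose and the adipocyte sum, led by CEBPA, fell in the intramuscular cells, while in the subcutaneous cells the proliferation sum rose and the stromal sum fell. Among 7 tested stromal genes 5 fell and 1 rose in SA against SPA, where 26.0% and 26.1% of all tested genes did. DCN led the fall of the sum, from 5441 to 4120 FPKM in the mean. The means of COL1A1 (255 to 335) and COL1A2 (1810 to 2186) went up. The endothelial sum rose in the intramuscular cells and the macrophage sum fell in the subcutaneous cells at an exact permutation p of 0.0159 (adjusted 0.0212). The part of these genes in the results below was not tested. Nor was that of the share of reads aligned, which in the study's alignment summary was higher in every preadipocyte library than in every adipocyte library of the same depot.

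**Figure D1:**
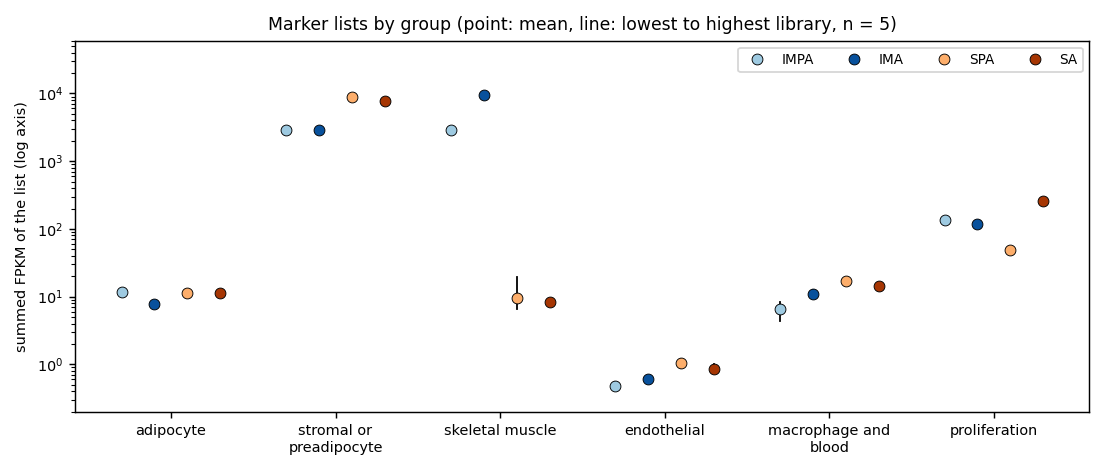
Summed FPKM of 6 marker lists (log axis) in the 4 groups, as the mean of 5 libraries with a line from the lowest to the highest library. Muscle genes reach means of 2845 FPKM in IMPA and 9553 in IMA and stay under 20 FPKM in every subcutaneous library, while adipocyte genes lie between 7.73 and 11.7 FPKM in all 4 group means.

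Among the ligands, BMP4 was the only one above 1 FPKM in every library. Its values in replicates 1 to 5 were 8.13, 5.75, 10.4, 6.60 and 9.39 FPKM in IMPA and 4.89, 4.30, 7.45, 4.83 and 4.71 in IMA. In the subcutaneous cells they were 2.41, 2.58, 2.24, 2.71 and 2.66 in SPA and 2.52, 2.03, 1.71, 1.26 and 2.14 in SA. All 10 intramuscular libraries lay above all 10 subcutaneous ones, whereas the stages overlapped within each depot. BMP4 was therefore higher in IMPA than in SPA, by 3.19 times in the mean and by 1.34 ± 0.12 (SE) on the log2 scale (adjusted p = 5.91e-07), and higher in IMA than in SA by 2.71 times (1.08 ± 0.13, adjusted p = 4.25e-06). With induction it fell by 0.53 on the log2 scale in the intramuscular cells (SE 0.15, adjusted p = 0.0104) and by 0.28 in the subcutaneous cells (SE 0.10, adjusted p = 0.0351). The subcutaneous call did not hold in 8 of 21 alternatives: without SA replicate 3 (adjusted p = 0.0734) or 4 (0.0573), without SPA replicate 2 (0.0652), 4 (0.0738) or 5 (0.0712), with no filter (0.0703), with the most abundant transcript in place of the sum (0.0958) and with all 4 groups in 1 fit (0.0952). Of the 5 BMP4 transcripts, NM_001285646.1 carried 76.5% of the summed level over all libraries.

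BMP2, which acts through the same receptors, was low, and it moved the other way from BMP4 with induction. It stood at 0.285, 0.376, 0.501, 0.216 and 0.229 FPKM in IMPA and 0.744, 0.776, 0.338, 0.850 and 0.584 in IMA. In SPA it was 0.344, 0.235, 0.679, 0.473 and 0.462, and in SA 0.514, 1.32, 0.704, 0.715 and 0.748. Mean levels were 0.321 ± 0.118 (SD, n = 5) in IMPA, 0.659 ± 0.204 in IMA, 0.438 ± 0.166 in SPA and 0.801 ± 0.305 in SA, and the stages overlapped in both depots. With the filter lowered to a mean of 0.1 FPKM, so that BMP2 entered the fit, it rose by 0.32 in IMA against IMPA (adjusted p = 0.00863) and by 0.32 in SA against SPA (adjusted p = 0.0348). With no filter the adjusted p values were 0.0148 and 0.0513, so the subcutaneous rise held under 1 of these settings only. Depots did not separate for BMP2 (log2 difference of -0.12 for IMPA against SPA and -0.11 for IMA against SA, adjusted p = 0.207 and 0.377 at the lower filter). BMP6 lay between 0 and 0.191 FPKM in all 20 libraries, with group means from 0.0788 to 0.0914, and no order of the groups can be read at that level.

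**Figure D2:**
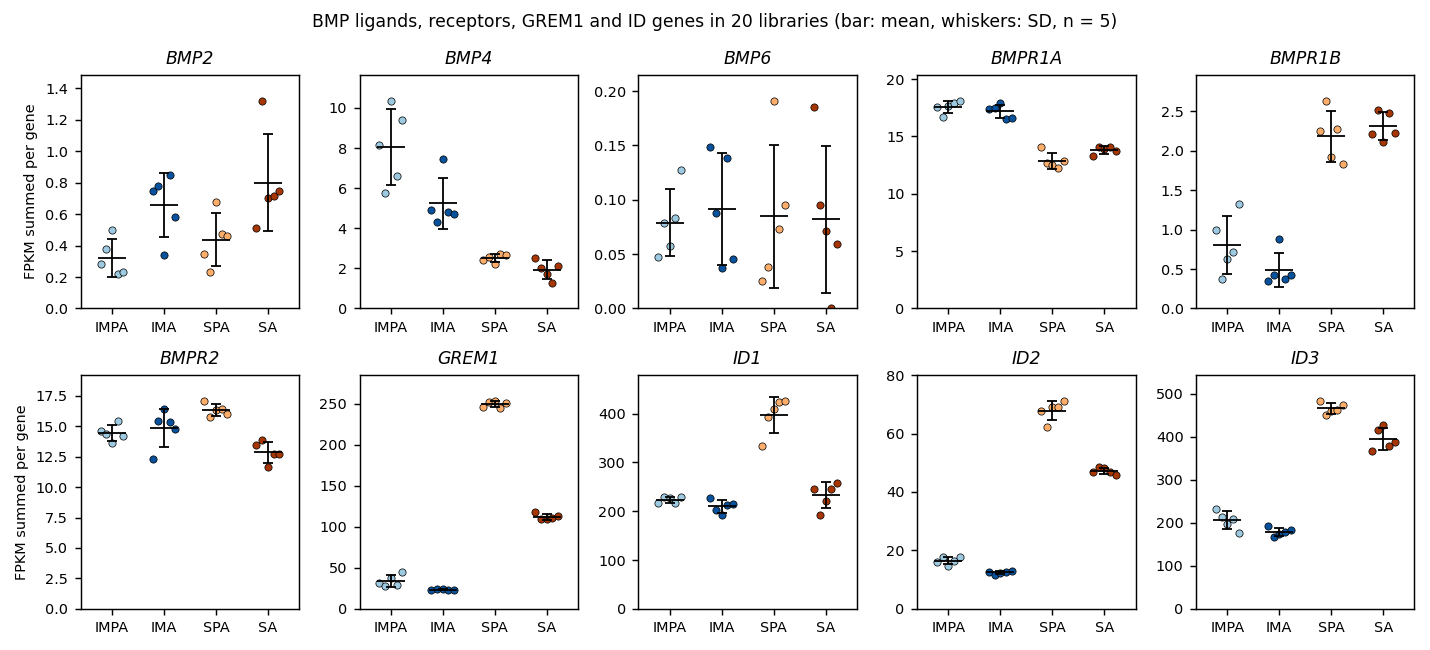
FPKM of each of the 10 genes in each of the 20 libraries, with its own vertical axis from 0, the mean as a bar and the SD as whiskers (n = 5 per group). GREM1 and ID2 separate all 4 groups, BMP4 and BMPR1B separate the depots, and BMP2 and BMP6 stay under 1.4 FPKM.

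The type I receptors showed opposite depot differences, at very different levels. BMPR1A was 17.6, 16.7, 17.6, 17.9 and 18.1 FPKM in IMPA, 17.4, 17.5, 18.0, 16.5 and 16.6 in IMA, 14.1, 12.7, 12.5, 12.2 and 12.8 in SPA, and 13.3, 14.1, 13.9, 14.1 and 13.8 in SA. Every intramuscular library exceeded every subcutaneous one, by a small margin. The log2 difference was 0.42 ± 0.04 between IMPA and SPA (adjusted p = 1.24e-06) and 0.29 ± 0.04 between IMA and SA (adjusted p = 1.64e-05). With induction BMPR1A passed the threshold in neither depot: the change was -0.03 in the intramuscular cells (95% confidence interval -0.11 to 0.05, adjusted p = 0.487) and 0.10 in the subcutaneous cells (0.01 to 0.19, adjusted p = 0.0706). The subcutaneous change did pass without SPA replicate 1 (adjusted p = 0.0125), without SPA replicate 1 and SA replicate 5 together (0.0191), with all 4 groups in 1 fit (0.0375) and after quantile normalization (0.0465). Within the gene, the transcript XM_018042147.1 was at 1.26 ± 1.14 FPKM in SPA and 0.00977 ± 0.00394 in SA, against 11.1 and 12.8 FPKM for XM_018042146.1, which carried 89.0% of the gene's level.

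BMPR1B was the lower type I receptor in all groups and the only one of the 3 receptors more abundant in the subcutaneous cells at both stages. It was at 0.991, 0.373, 0.622, 0.720 and 1.32 FPKM in IMPA, 0.344, 0.430, 0.875, 0.376 and 0.420 in IMA, 2.25, 2.64, 1.92, 2.27 and 1.84 in SPA, and 2.21, 2.52, 2.12, 2.47 and 2.23 in SA. The depots did not overlap, and the stages overlapped in both depots. IMPA lay below SPA by 2.71 times in the mean (log2 difference -0.83 ± 0.12, adjusted p = 5.37e-05) and IMA below SA by 4.73 times (-1.16 ± 0.09, adjusted p = 2.69e-08). Since this gene entered the test through its subcutaneous values, a depot difference was to some degree built into its selection. Its change with induction was -0.27 in the intramuscular cells (95% confidence interval -0.56 to 0.03, adjusted p = 0.106) and 0.06 in the subcutaneous cells (-0.09 to 0.21, adjusted p = 0.488). The intramuscular value passed the threshold without IMA replicate 3 (-0.35, adjusted p = 0.0328), in which BMPR1B stood apart at 0.875 FPKM, without IMPA replicate 2 (-0.36, adjusted p = 0.0258), and with all 4 groups in 1 fit (adjusted p = 0.0469). BMPR1B was spread over 11 transcripts, of which the leading one held 34.8%.

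BMPR2, the type II receptor, fell with induction in the subcutaneous cells. It was 17.1, 15.8, 16.3, 16.4 and 16.0 FPKM in SPA and 13.5, 13.8, 11.6, 12.7 and 12.7 in SA, against 14.6, 14.4, 13.6, 15.4 and 14.2 in IMPA and 12.3, 15.5, 16.5, 15.4 and 14.8 in IMA. Every SA library lay below every SPA library, while IMA spanned the whole range of IMPA. The fall in SA was 0.32 on the log2 scale (SE 0.05, adjusted p = 0.000102), and the change in IMA was 0.04 (95% confidence interval -0.11 to 0.18, adjusted p = 0.650). The depot difference turned with the stage: BMPR2 was lower in IMPA than in SPA (-0.17 ± 0.04, adjusted p = 0.00173) and higher in IMA than in SA (0.19 ± 0.07, adjusted p = 0.0249). That last difference lost its call without IMA replicate 2 (adjusted p = 0.0559), 3 (0.0650) or 4 (0.0549) or without SA replicate 3 (0.0627).

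GREM1 varied more over the 20 libraries than any of the other 7 tested genes of the family (variance of log2(FPKM + 1) 1.92, followed by 1.02 for ID2). It was 246, 252.2, 253, 245 and 251 FPKM in SPA and 118, 109, 109, 110 and 113 in SA. In the intramuscular cells it was 31.3, 28.1, 37.2, 29.1 and 45.0 in IMPA and 23.3, 24.2, 23.9, 23.0 and 22.3 in IMA. No pair of groups overlapped, and the order of the group means was SPA, SA, IMPA, IMA, with SDs of 3.73, 3.94, 7.01 and 0.745 FPKM. Before induction the subcutaneous level was 7.31 times the intramuscular one (log2 difference of IMPA against SPA -2.86 ± 0.10, adjusted p = 6.71e-11), and after it 4.80 times (IMA against SA -2.21 ± 0.04, adjusted p = 1.55e-15). GREM1 fell with induction by 1.46 times in the intramuscular mean (log2 change -0.51 ± 0.11, adjusted p = 0.00140) and by 2.23 times in the subcutaneous mean (adjusted p = 5.9e-11). Both falls held in every alternative run, 20 and 21 of them.

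GREM1 was also set against the ligands it binds within the same library. The ratio of GREM1 to the sum of BMP2 and BMP4, a quantity chosen after these values had been seen, was 84.6 ± 5.72 in SPA and 42.4 ± 8.75 in SA (SD, n = 5), and all SPA libraries exceeded all SA libraries. In IMPA and IMA it was 4.13 ± 0.545 and 4.05 ± 0.612, from 3.43 to 4.67 and from 3.07 to 4.77, and these ranges overlapped. In IMPA and IMA the fall in GREM1 ran beside a fall in BMP4, while in SPA and SA GREM1 changed more than the ligands. With BMP4 alone in the denominator the ratio was 99.5 in SPA and 61.0 in SA. These are ratios of mRNA levels and say nothing of the proteins.

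**Figure D3:**
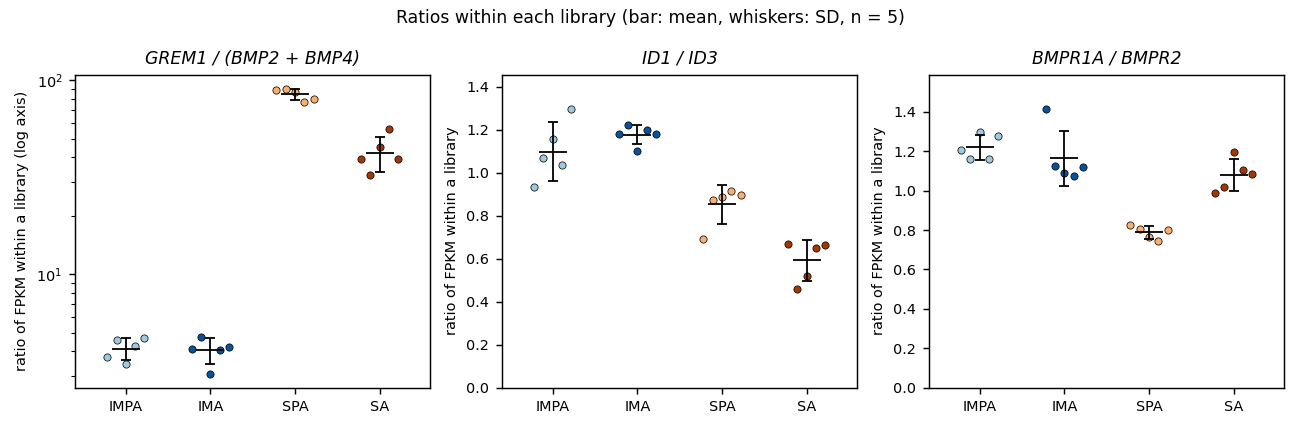
Ratios of FPKM within each library for GREM1 against BMP2 plus BMP4 (log axis), ID1 against ID3, and BMPR1A against BMPR2, with the mean as a bar and the SD as whiskers (n = 5). The first ratio is near 4 in both intramuscular groups and falls from a mean of 84.6 in SPA to 42.4 in SA; the second is lowest in SA at 0.592.

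ID1 and ID3 were the most abundant genes of the family in every group, and ID2 the least abundant of the ID genes named. ID1 was 334, 393, 409, 423 and 426 FPKM in SPA, and 245, 191, 222, 246 and 258 in SA. In the intramuscular cells it was 217, 229, 227, 216 and 229 in IMPA and 228, 203, 193, 213 and 216 in IMA. SPA alone stood apart, with its lowest library above the highest of every other group. ID1 fell by 0.77 on the log2 scale in SA against SPA (SE 0.09, adjusted p = 1.09e-05), to a mean of 233 FPKM. In IMA against IMPA its change was -0.09 (95% confidence interval -0.18 to 0.01, adjusted p = 0.101), which passed the threshold without IMA replicate 1 (adjusted p = 0.0284) and after quantile normalization (0.0119). IMPA was lower than SPA by 1.78 times in the mean (-0.82 ± 0.06, adjusted p = 6.01e-08), but the difference of IMA from SA was -0.14 (95% confidence interval -0.30 to 0.02, adjusted p = 0.108), passing without SA replicate 2 (-0.21, adjusted p = 0.00589) and after quantile normalization (-0.20, 0.0490).

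ID2 separated all 4 groups. Its values were 67.8, 62.3, 69.0, 69.2 and 71.2 FPKM in SPA, 46.8, 48.5, 48.3, 46.9 and 45.9 in SA, 16.1, 17.6, 14.5, 16.4 and 17.7 in IMPA and 12.7, 11.7, 12.1, 12.6 and 13.0 in IMA. The order of the groups was that of GREM1. IMPA was below SPA by 4.12 times (log2 difference -1.98 ± 0.05, adjusted p = 4.8e-12) and IMA below SA by 3.81 times (-1.85 ± 0.04, adjusted p = 2.08e-14). With induction ID2 fell by 0.38 in the intramuscular cells (SE 0.06, adjusted p = 0.000107) and by 0.51 in the subcutaneous cells (SE 0.04, adjusted p = 2.4e-07).

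ID3 was higher in the subcutaneous cells at both stages. It was 484, 452, 461, 462 and 475 FPKM in SPA, 367, 416, 428, 379 and 389 in SA, 233, 214, 196, 209 and 177 in IMPA and 193, 167, 175, 178 and 182 in IMA. The subcutaneous stages were separate, and the intramuscular stages overlapped. SPA exceeded IMPA by 2.27 times (IMPA against SPA -1.18 ± 0.06, adjusted p = 1.96e-09) and SA exceeded IMA by 2.21 times (IMA against SA -1.14 ± 0.05, adjusted p = 8.65e-11). ID3 fell by 0.24 in SA against SPA (SE 0.04, adjusted p = 0.000784) and by 0.20 in IMA against IMPA (SE 0.07, adjusted p = 0.0219). The intramuscular fall was lost after upper-quartile scaling (adjusted p = 0.0638), without IMA replicate 2 (0.0559) and without IMPA replicate 1 (0.0522).

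The makeup of the ID pool differed as well, in quantities that were also chosen after the values were seen. The ID genes summed to 446 ± 17.3 FPKM in IMPA, 402 ± 22.2 in IMA, 932 ± 35.2 in SPA and 676 ± 19.4 in SA. ID1 stood above ID3 in the intramuscular means, at ratios of 1.10 ± 0.136 and 1.18 ± 0.0449, and below it in SPA at 0.853 ± 0.0914 and in SA at 0.592 ± 0.0961, without overlap between SPA and SA. ID2 made up 3.70% ± 0.338 of the sum in IMPA, 3.09% ± 0.102 in IMA, 7.29% ± 0.282 in SPA and 7.001% ± 0.279 in SA. The share of ID2 overlapped between SPA and SA but not between IMPA and IMA, and the depots were separate. The ratio of BMPR1A to BMPR2 was 0.788 ± 0.0318 in SPA and 1.08 ± 0.0820 in SA, without overlap, and 1.22 ± 0.0638 and 1.17 ± 0.140 in IMPA and IMA, with overlap.

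Read together, all tested genes of the family that passed the threshold with induction in the main fits fell. In IMA against IMPA 4 of the 8 tested genes fell (BMP4, GREM1, ID2 and ID3) and none rose, where 60.1% of all tested genes were called, 19.9% as higher and 40.2% as lower. Lower calls thus also outnumbered higher ones among all tested genes, and the intramuscular count alone does not set the family apart. In SA against SPA 6 of 8 fell (BMP4, BMPR2, GREM1, ID1, ID2 and ID3) and none rose, where 52.1% were called, 26.1% as higher and 26.0% as lower. The median change of the tested family genes was -0.23 against -0.09 for all tested genes in the intramuscular cells, and -0.30 against -0.01 in the subcutaneous cells. Of all 10 genes, IMA and IMPA did not overlap for 2 (GREM1 and ID2, against 43.5% of tested genes), and SA and SPA did not for 5 (BMPR2, GREM1 and ID1, ID2 and ID3, against 38.8%). BMP2, outside the filter, went up in the mean in both depots. Among the tested genes, BMPR2 in IMA against IMPA (0.04) had a change above 0 that did not pass. So did BMPR1A (0.10) and BMPR1B (0.06) in SA against SPA.

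Between the depots, leaving aside BMPR1B because it passed the filter through its subcutaneous libraries, 7 of the other 7 tested genes differed in IMPA against SPA, BMP4 and BMPR1A being higher and 5 lower in IMPA, where 75.1% of all tested genes were called (42.3% higher, 32.9% lower). In IMA against SA 6 of these 7 differed, 3 higher (BMP4, BMPR1A, BMPR2) and 3 lower (GREM1, ID2, ID3), where 72.4% were called (29.0% higher, 43.4% lower). Median differences over all 8, BMPR1B included, were -0.83 against 0.05 for all tested genes before induction and -0.64 against -0.09 after it. With BMPR1B left out, the middle value of the other 7 was that of ID1, at -0.82 before induction and -0.14 after it. The median after induction thus leaned on BMPR1B. The split of all tested genes depended on the scaling: after quantile normalization 4046 were higher and 4665 lower in IMPA against SPA. IMPA and SPA did not overlap for 8 of all 10 genes (63.4% of tested genes) and IMA and SA for 6 (58.6%). Both counts include BMPR1B, and the 10 genes include BMP2 and BMP6, which were not tested and overlapped in both comparisons. Since most tested genes were called in these comparisons, a call alone does not set these genes apart. The comparisons share their groups: IMPA, for one, enters both the stage and the depot comparison, so the 4 sets of differences are not independent.

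**Figure D4:**
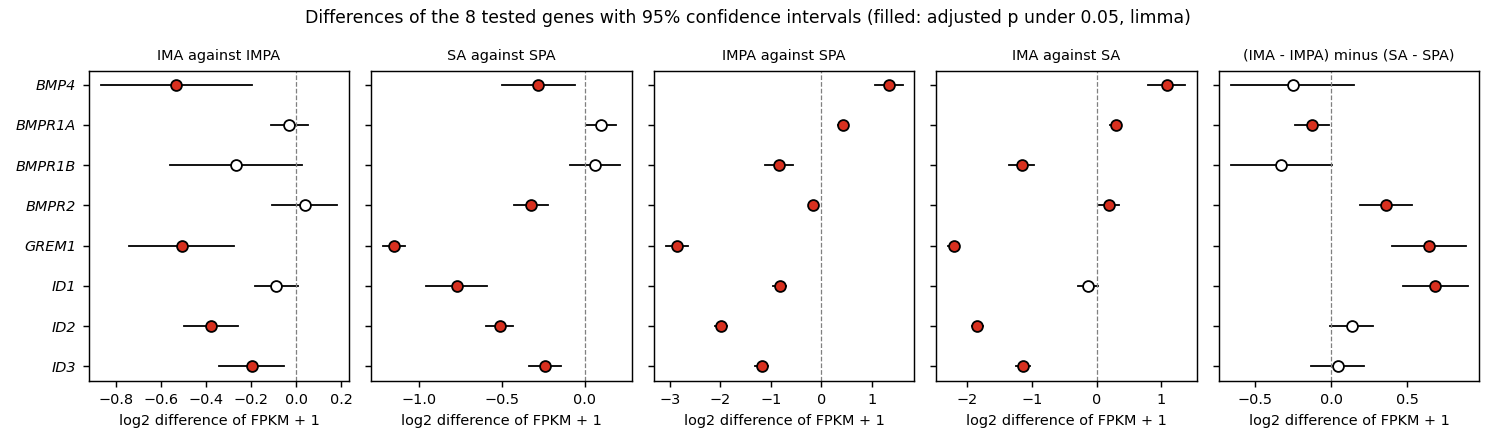
Differences of log2(FPKM + 1) for the 8 tested genes (points, with 95% confidence intervals from limma) in the 4 comparisons and in the difference between the stage changes, each panel with its own horizontal axis. Filled points have an adjusted p under 0.05; with induction every filled point lies below 0, and between depots BMP4 and BMPR1A lie above 0 while GREM1, ID2, ID3 and BMPR1B lie below it.

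Whether the change with induction differed between the depots was tested as the change in the intramuscular cells minus that in the subcutaneous cells. It differed for 4 of 8 genes, 3 higher and 1 lower, against 55.3% of all tested genes (20.7% higher, 34.6% lower). The difference was 0.68 ± 0.10 for ID1 (adjusted p = 7.46e-06), 0.64 ± 0.12 for GREM1 (adjusted p = 8.39e-05) and 0.36 ± 0.08 for BMPR2 (adjusted p = 0.000949), so these genes fell more in the subcutaneous cells, and all 3 held in 30 of 30 alternatives. For BMPR1A it was -0.13 ± 0.05 (adjusted p = 0.0482), a call that held in only 8 of 30 alternatives, with adjusted p between 0.00918 and 0.240. For ID2 it was 0.13 (95% confidence interval -0.01 to 0.27, adjusted p = 0.0972), for ID3 0.04 (-0.13 to 0.21, adjusted p = 0.685), for BMP4 -0.25 (-0.66 to 0.15, adjusted p = 0.280) and for BMPR1B -0.33 (-0.66 to 0.01, adjusted p = 0.0884). The ID2 value passed without IMPA replicate 5 (adjusted p = 0.0494) or SPA replicate 2 (0.0408) and under both other scalings, and the BMPR1B value without IMA replicate 3 (0.0234) or IMPA replicate 2 (0.0186). Proliferation genes rose in SA against SPA, where GREM1, ID1 and BMPR2 fell more than in the intramuscular cells, and in IMA against IMPA 3 of 7 of them fell and none rose.

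The rest of the pathway was read from 5 lists of 61 other genes, 57 of which were in the table and 35 of which were tested. In IMA against IMPA 6 rose and 14 fell (median -0.12), where 19.9% of all tested genes rose and 40.2% fell. In SA against SPA 4 rose and 18 fell (median -0.15), where 26.1% rose and 26.0% fell. In IMPA against SPA 16 were higher and 15 lower, in IMA against SA 16 higher and 14 lower, beside 42.3% and 32.9% of all tested genes in the former and 29.0% and 43.4% in the latter. These depot counts include HFE2, BMPER, CHRD and SOX9, which passed the filter only through their intramuscular libraries. They also include ACVRL1, which passed through its subcutaneous libraries. The stage change differed between depots for 22, 13 higher and 9 lower, beside 20.7% and 34.6%. These include HFE2, BMPER, SOX9 and ACVRL1, each of which passed the filter through 1 depot. HFE2 and BMPER were near 0 FPKM in the subcutaneous cells, with changes there of -0.00187 and -0.0117. Their differences of stage changes are therefore little more than the intramuscular change. These shares over all tested genes hold for the counts of the single lists below. Of 14 other BMP and growth differentiation factor ligands only GDF11, which signals mainly through activin receptors, passed the filter. It fell in both depots, from 5.12 to 3.96 FPKM and from 3.80 to 2.04 FPKM in the mean.

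Of 9 tested extracellular antagonists and modifiers other than GREM1, 1 rose and 4 fell in IMA against IMPA (19.9% and 40.2% of all tested genes). In SA against SPA 4 rose and 3 fell (26.1% and 26.0%). The 9 include BMP1, TWSG1 and CRIM1, so these are not counts of antagonists alone. In the intramuscular cells FSTL3, a follistatin-like protein that binds activins, rose most, from 6.32 ± 0.722 to 14.2 ± 1.10 FPKM (1.06 ± 0.07 on the log2 scale, adjusted p = 2.94e-07). BMPER, a secreted BMP-binding modulator, fell most, from 5.03 ± 1.13 to 2.05 ± 0.293 FPKM (-0.97 ± 0.11, adjusted p = 1.94e-05). It was listed at 0.118 FPKM or less in every subcutaneous library. In the subcutaneous cells FST (follistatin, an antagonist of activins and some BMPs) rose most, from 5.68 ± 0.358 to 13.9 ± 1.28 FPKM (1.16 ± 0.06, adjusted p = 2.24e-08). NOG (noggin, which binds BMP2 and BMP4 as GREM1 does) fell most, from 12.0 ± 0.674 to 6.99 ± 0.269 FPKM (-0.70 ± 0.05, adjusted p = 9.75e-08). NOG was at 1.67 ± 0.514 FPKM in IMPA and 1.63 ± 0.265 in IMA. The stage changes of FSTL3 and FST differed between the depots by 1.34 (adjusted p = 7.73e-11) and -1.76 (adjusted p = 3.14e-09), FST having gone from 14.2 to 8.86 FPKM in the intramuscular cells.

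**Figure D5:**
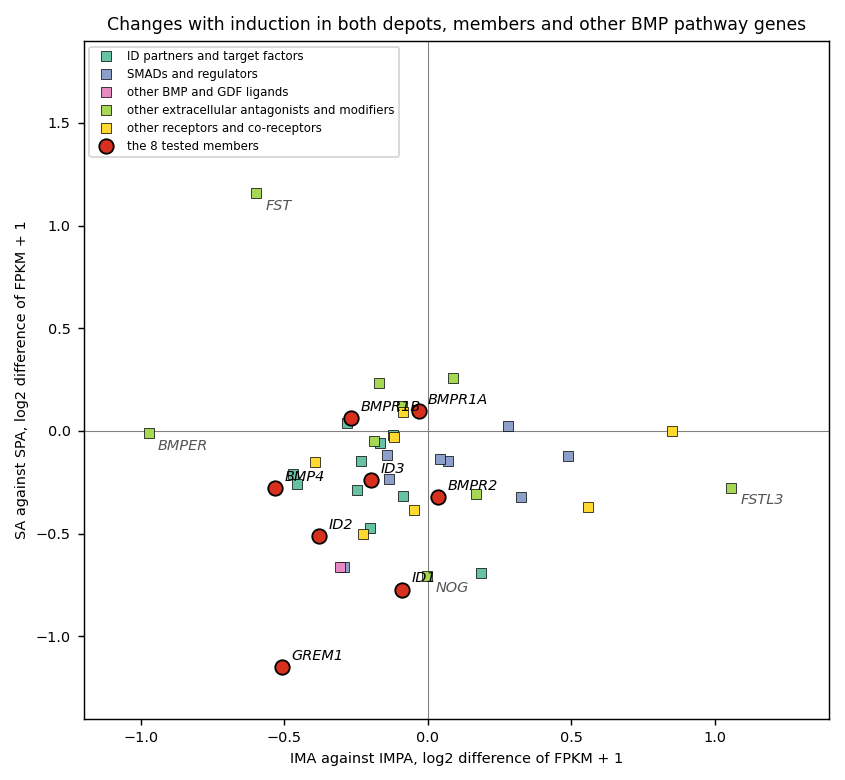
Change with induction on the scale of log2(FPKM + 1) in the intramuscular cells (horizontal) and in the subcutaneous cells (vertical), for the 8 tested genes of the family (circles) and 35 other pathway genes (squares, coloured by list). Most circles lie below the horizontal zero line, GREM1 lowest, while FSTL3 and FST sit far out on opposite sides.

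Among 7 tested receptors and co-receptors, the extremes between depots were the same before and after induction. HFE2 (hemojuvelin, a BMP co-receptor made in skeletal muscle and liver) was at 8.35 ± 1.12 FPKM in IMPA and 16.0 ± 3.07 in IMA, and between 0 and 0.0577 FPKM in all subcutaneous libraries. Its log2 difference was 3.20 ± 0.07 before induction (adjusted p = 9.28e-13) and 4.05 ± 0.10 after it (adjusted p = 4.84e-14). HFE2 passed the filter only through its intramuscular libraries, so a depot difference was built into its selection. The muscle markers, at 2845 and 9553 FPKM in the same groups, move with this gene, and their part was not tested. ACVRL1, a type I receptor best known from endothelium, showed the reverse: 0.446 ± 0.118 and 1.13 ± 0.101 FPKM in IMPA and IMA against 11.7 ± 0.946 and 8.84 ± 0.532 in SPA and SA (-3.14 ± 0.07, adjusted p = 5.8e-13, and -2.21 ± 0.06, adjusted p = 1.25e-13). ACVRL1 passed the filter through its subcutaneous libraries in turn. The endothelial sum was at 0.479, 0.605, 1.06 and 0.865 FPKM in IMPA, IMA, SPA and SA. Its means differed in the same direction as those of ACVRL1 in all 4 comparisons (exact permutation p = 0.0556 for SA against SPA). All 5 endothelial genes averaged under 1 FPKM in every group, and not all went with the sum. TEK was higher in the intramuscular means (0.304 and 0.335 FPKM in IMPA and IMA, 0.222 in SPA and SA), and KDR was higher in IMPA than in SPA. The part of the endothelial genes was not tested.

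The intracellular SMADs and their regulators, 8 genes tested, had 3 higher and 3 lower in IMA against IMPA (19.9% and 40.2% of all tested genes) and 5 lower with none higher in SA against SPA (26.0% lower and 26.1% higher). The latter 5, named after their values were seen, were the signal-carrying SMAD1, SMAD5 and SMAD9, the inhibitory SMAD6, itself a BMP target, and the ubiquitin ligase SMURF1. SMAD6 was at 42.9 ± 1.301 FPKM in SPA and 26.8 ± 1.06 in SA, against 7.03 ± 0.417 in IMPA and 5.57 ± 0.562 in IMA. That is the order of groups seen for GREM1 and ID2. SMAD1 went the other way between depots, with means of 17.1 and 21.7 FPKM in IMPA and IMA and 12.9 and 10.1 in SPA and SA. For 5 of the 8 genes the stage change was higher in the intramuscular cells and for none lower, beside 20.7% and 34.6% of all tested genes.

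The partners of the ID proteins and other BMP target factors, 10 tested, had none higher and 5 lower in IMA against IMPA (TCF3, TCF4, HEY1, ATOH8 and SOX9), where 40.2% of all tested genes were lower, and none higher and 6 lower in SA against SPA, where 26.0% were lower. Between depots 6 were higher and 3 lower in IMPA than in SPA, and also in IMA than in SA. The 3 lower ones in IMPA were MSX1, MSX2 and ATOH8, and the 6 higher ones were ID4, TCF3, TCF4, TCF12, HEY1 and SOX9, so target factors stood on both sides. SOX9 averaged 0.477 FPKM in SPA and 0.518 in SA. It passed the filter only through its intramuscular libraries, so a depot difference was built into its selection. TCF4 and TCF12, E proteins that the ID proteins bind, were at 16.4 and 41.2 FPKM in IMPA and at 7.20 and 23.6 in SPA. The depot with the higher summed ID level thus had the lower levels of both. ID4, the remaining ID gene, was higher in the intramuscular cells, with means of 8.63 and 7.37 FPKM against 3.54 in SPA and 2.28 in SA, the opposite depot order to ID2 and ID3. The genes of this paragraph were singled out after their values had been seen.

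The genes whose profiles over the 20 libraries lay nearest to GREM1, by the root mean square distance between log2(FPKM + 1) values centred on each gene's mean, were PPL (0.147), DPYS (0.247) and LGALS3 (0.254), where the median over all tested genes was 1.35. PPL went from 16.0 FPKM in SPA to 6.14 in SA and from 1.43 in IMPA to 0.535 in IMA. LGALS3 was at 369, 201, 39.3 and 38.0 FPKM in SPA, SA, IMPA and IMA. Nearest to ID2 were LUZP2 (0.116), IL11RA (0.129) and FGF18 (0.133), with a median of 0.988 over all tested genes. IL11RA, the interleukin-11 receptor subunit, had means of 34.8, 27.9, 8.02 and 7.04 FPKM in the same order of groups. These distances describe likeness of profile over 4 groups of libraries and rest mainly on the depot difference.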

How the data were processed

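RNA of 20 libraries was sequenced after strand-specific library preparation. The authors aligned reads to the goat assembly ARS1 with HISAT2 2.0.4, assembled transcripts with Scripture and Cufflinks, and deposited FPKM per transcript, for which StringTie 1.3.1, Ballgown and Cuffdiff are named. The submitters' processing notes also name GATK 2.6-5. The FPKM of the 43766 mRNA transcripts were summed per gene symbol (20587), of which 6 joined 2 gene identifiers. No counts were used, so the depth behind a value is unknown and 0 cannot be told from a level below depth.

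Values were tested as log2(FPKM + 1), without further scaling, with the moderated test of limma 3.58.1 (variance trend, two-sided, R 4.3.3) for genes with a mean of at least 1 FPKM (11432), adjusted by Benjamini-Hochberg. Each pair of groups was fitted on its 10 libraries and the difference of stage changes on all 20. Replicates were not paired. Marker sums were compared with exact permutation tests over 5 against 5 libraries. Other steps used Python 3.11.15, numpy 2.4.6, pandas 2.3.3, scipy 1.17.1 and matplotlib 3.10.9. Confidence intervals are 95%. The fits were tested on simulated data.

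The 10 genes, the pathway and marker lists and the tests were chosen with earlier results of these data known. Besides the 10 genes, the text names, in each comparison, the called pathway gene with the largest change in each direction and the 3 tested genes nearest in profile to each of the 2 most variable members; any other gene was chosen after its values were seen. CHRDL1, NBL1, HJV (present as HFE2) and FABP4 were not analysed here under these symbols. The lncRNA tables entered only 1 alternative fit. No sequences are printed, and miRNA and qPCR data were not analysed here. Alternatives were a pseudocount of 0.1, a minimum mean of 0.1 FPKM or no filter, upper-quartile scaling, quantile normalization, no variance trend, the most abundant transcript, a block for replicate number, lncRNAs added, all 4 groups in 1 fit, SPA1 and SA5 left out (set apart by the study's read filtering) and each library left out.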

Additional observations from a re-analysis of the deposited data

Results flagged for a closer look

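In 3 of the 40 sets of 5 libraries examined (10 genes in 4 groups), 1 library stood apart from the other 4 by Dixon's criterion, which chance meets in about 1 of 20 sets. BMP2 was at 1.32 FPKM in SA replicate 2, against 0.514 to 0.748 in the other SA libraries. IMA replicate 3 was highest of its group for both BMP4, at 7.45 FPKM, and BMPR1B, at 0.875 FPKM. Without that library the BMP4 change in IMA against IMPA was -0.65 in place of -0.53, and that of BMPR1B -0.35 in place of -0.27.

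The change with induction differed between the depots, tested as the difference itself, for ID1 (0.68), GREM1 (0.64), BMPR2 (0.36) and BMPR1A (-0.13) among the 10 genes, and for FSTL3 (1.34) and FST (-1.76) among the other pathway genes named. Positive values mean that the intramuscular change lay above the subcutaneous one. FST moved in opposite directions, falling from 14.2 to 8.86 FPKM in the mean in the intramuscular cells and rising from 5.68 to 13.9 FPKM in the subcutaneous cells, and FSTL3 moved the opposite way in each. The mapped share of reads and the muscle and proliferation genes also moved with the stage, and their part was not tested.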

How the results depend on the processing

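Of 529 values recomputed under alternatives other than leaving out 1 library, 505 were unchanged, and 603 of 640 were when 1 library was left out. A log2 difference was unchanged if it kept its direction and its side of the threshold. A count was unchanged if it stayed within 1.5 times the reported one, and the mean of a ratio if it moved by less than the SD of its group. The counts of called genes and of called members stayed within 1.5 times the reported ones in all alternatives. Without 1 library, members called ranged from 3 to 5 of 8 in IMA against IMPA, 5 to 7 in SA against SPA, 8 in IMPA against SPA, 6 to 8 in IMA against SA and 3 to 5 in the difference of stage changes. The change of BMPR1A in IMA against IMPA turned from -0.03 to 0.00571 with upper-quartile scaling and 0.0267 with quantile normalization, and the difference of stage changes of ID3 from 0.04 to -0.0282 with quantile normalization and to -0.0101 without IMPA replicate 5 (range without 1 library -0.0101 to 0.0883); none of these values passed the threshold, and the cause was not tested. With a pseudocount of 0.1 the differences of BMPR1B grew to -0.59, -1.42 and -2.09 in IMA against IMPA, IMPA against SPA and IMA against SA. The ratio of GREM1 to its ligands moved to 99.5 in SPA and 61.0 in SA with BMP4 alone, an alternative added after the data had been seen. Quantile normalization changed the split of calls in the difference of stage changes from 2368 higher and 3951 lower to 3027 and 3221. It reversed the split in IMPA against SPA, from 4831 higher and 3757 lower to 4046 and 4665. The median of all genes in that comparison turned from 0.05 to -0.03. Other scalings moved the median of all genes by less than 0.1 on the log2 scale. A gene below about 1 FPKM, such as BMP2, BMP6 and BMPR1B in the intramuscular cells, is limited by a depth that is unknown here.

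The groups shared replicate numbers, whose goats are not given in the sources used here. The numbers were not taken to pair the libraries, since not every same-number correlation was over 0.1 in any comparison: correlations of same-numbered libraries ran from 0.0417 to 0.121 in IMA against IMPA (2 of 5 over 0.1, 7 of 10 libraries correlating best with their own number) and from -0.242 to 0.122 in SA against SPA (1 of 5, and 1 of 10). Between depots they ran from -0.101 to 0.0609 for IMPA and SPA and from -0.182 to 0.0259 for IMA and SA. With the replicate number as a block 6826, 5602, 8530, 8059 and 6304 genes were called in IMA against IMPA, SA against SPA, IMPA against SPA, IMA against SA and the difference of stage changes, against 6867, 5957, 8588, 8277 and 6319 without it. The block lowered the adjusted p of BMP4 in IMA against IMPA from 0.0104 to 0.000856. Among members it made ID1 in IMA against SA pass (adjusted p = 0.0493) and BMPR1A in the difference of stage changes miss the threshold (0.0701).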
